A study of Rattus norvegicus with 4 samples.

Results

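The eukaryotic translation initiation factors (eIF) and elongation factors (eEF) were examined in rat INS-1 832/13 β-cells, an insulin-secreting line derived from an insulinoma, after knockdown of the kinase TBK1. The members were all protein-coding genes whose symbol starts with Eif or Eef, leaving out the 4 eIF2 kinases (Eif2ak) and 1 Eef row of another biotype, which gave 57 of the 15172 genes in the table. They comprised 5 genes of eIF1 and eIF1A, 3 of eIF2, 2 for eIF2A and eIF2D, 5 of eIF2B and 11 of eIF3. A further 14 were of eIF4 with its binding proteins, 4 of eIF5A, eIF5B and eIF6, and 13 of the elongation factors with their modifying enzymes. The set of 4 is labelled eIF5 and eIF6 below, although Eif5 itself was not a member. All 57 passed the filter on low counts, and the lowest count of any member in any library was 65. Cells were transfected for 36 h either with a pool of siRNAs against Tbk1 (siTbk1, 2 samples) or with a non-targeting siRNA (siScramble, 2 samples), so every library came from transfected cells of a single line. The labels do not say whether the 2 samples of a group were separate cultures, and p-values then measure only the spread between these samples.

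Translation of most mRNAs begins when eIF2 brings the initiator methionyl-tRNA to the small ribosomal subunit, helped by eIF1, eIF1A and the multi-subunit scaffold eIF3. The eIF4F complex (the cap-binding protein eIF4E, the scaffold eIF4G and the helicase eIF4A) recruits the mRNA, and eIF2B recharges eIF2 with GTP so that it can start again. In elongation, eEF1A delivers aminoacyl-tRNA to the ribosome, the eEF1B subunits recharge eEF1A, and eEF2 moves the ribosome along the mRNA. A β-cell makes proinsulin at a high rate and adjusts that rate to glucose, in part through eIF2 and its kinases.

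Many elongation factor mRNAs belong to the terminal oligopyrimidine (TOP) class, which starts with C followed by an unbroken run of pyrimidines and whose translation follows mTORC1. The sequences around the annotated start of 6 members of that class are shown because the largest falls in level occurred among them while others of the same class stayed near their control level. Each window holds 40 bases before and 10 bases after the start given by RefSeq on assembly GRCr8, on the strand of the gene, and the capitals mark the longest run of C and T that begins with C.
Eef1a2 (chr3:188652624-188652673, minus strand): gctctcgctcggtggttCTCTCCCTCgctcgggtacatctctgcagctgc
Eef2 (chr7:9189229-9189278, minus strand): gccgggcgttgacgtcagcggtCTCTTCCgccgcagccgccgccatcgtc
Eef1g (chr1:215289775-215289824, plus strand): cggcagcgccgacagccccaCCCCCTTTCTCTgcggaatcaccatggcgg
Eef1a1 (chr8:88225060-88225109, minus strand): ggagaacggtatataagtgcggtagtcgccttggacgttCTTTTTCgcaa
Eif3f (chr1:172369022-172369071, plus strand): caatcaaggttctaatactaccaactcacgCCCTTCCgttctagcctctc
Eef1b2 (chr9:72074051-72074100, plus strand): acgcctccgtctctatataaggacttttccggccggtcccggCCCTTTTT

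A run of at least 7 such bases lay in the window of 22 of the 53 members with a promoter in the RefSeq table (41.5%), against 23.4% of all 27457 promoters, and the minimum of 7 was chosen after the sequences were seen. Among the elongation factor genes with their modifying enzymes it was present in 9 of 12. The 9 include Eef1e1, Eef1akmt1, Eef1akmt2 and Eef2kmt, which were not listed as TOP mRNAs. By direction of change, it was found in 2 of the 10 members that rose, 7 of the 16 that fell and 13 of the 27 that did neither. A run in the window is a match of letters, and annotated starts can differ from the starts used in these cells.

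The libraries held 38428926 to 47759013 counts, and the count for Tbk1 was lower in both siTbk1 libraries. Tbk1 was measured at 53.7 and 52.5 CPM (counts per 1000000 counts of a library, after scaling for library composition) in siScramble and at 11.8 and 13.3 CPM in siTbk1, a log2 fold change of -2.08 ± 0.076 (SE; adjusted p = 3.7e-08, edgeR's quasi-likelihood test). All 8 β-cell markers looked for were in the table, and their summed level was 18558 and 19445 CPM in siScramble and 15837 and 14177 CPM in siTbk1. The markers did not move together, with log2 fold changes from -0.67 to 0.38. At an adjusted p below 0.05, 2 were higher (24.4% of all genes were) and 5 lower (24.8%). Ins1 weighed heavily in the sum, at 6132 to 11320 CPM over the 4 libraries before the scaling for composition. Of the 5 markers of other islet cells only Gcg was in the table, at 1389 and 1313 CPM in siScramble and 815 and 878 CPM in siTbk1. The 5 exocrine markers had no row, and of the immune, endothelial and fibroblast markers only Cd68 was present, at 0.185 to 0.340 CPM. In bulk RNA, fewer cells of a type and less RNA per cell cannot be told apart, and the part of these marker differences in the results that follow was not tested.

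Few factor genes changed strongly, and those that did were elongation factors. With an adjusted p below 0.05 and a fold change of at least 1.5, 2 of 57 members were lower in siTbk1 (3.51%, against 6.18% of all 13953 genes tested), namely Eef1a2 and Eef2. No member was higher by this rule (4.81% of all genes were), 0 passed with an unadjusted p below 0.05 and the same fold limit, and DESeq2 called 0 higher. With the adjusted p alone, 12 members rose (21.1%, against 24.4% of all genes; 13 at an unadjusted p), 17 fell (29.8%, against 24.8%), and 28 did not pass. The shares of members that changed were thus near those of all genes, and the counts by complex that follow are of few genes and are to be read against the same shares of all genes, 24.4% higher and 24.8% lower. The median log2 fold change was -0.06 over the members and 0.01 over all genes, and the median size of the change was 0.19 and 0.25. Both siTbk1 libraries lay above both siScramble libraries for 15 members (38.7% of all genes did so) and below them for 29 (37.9%), and the groups overlapped for 13.

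**Figure D1:**
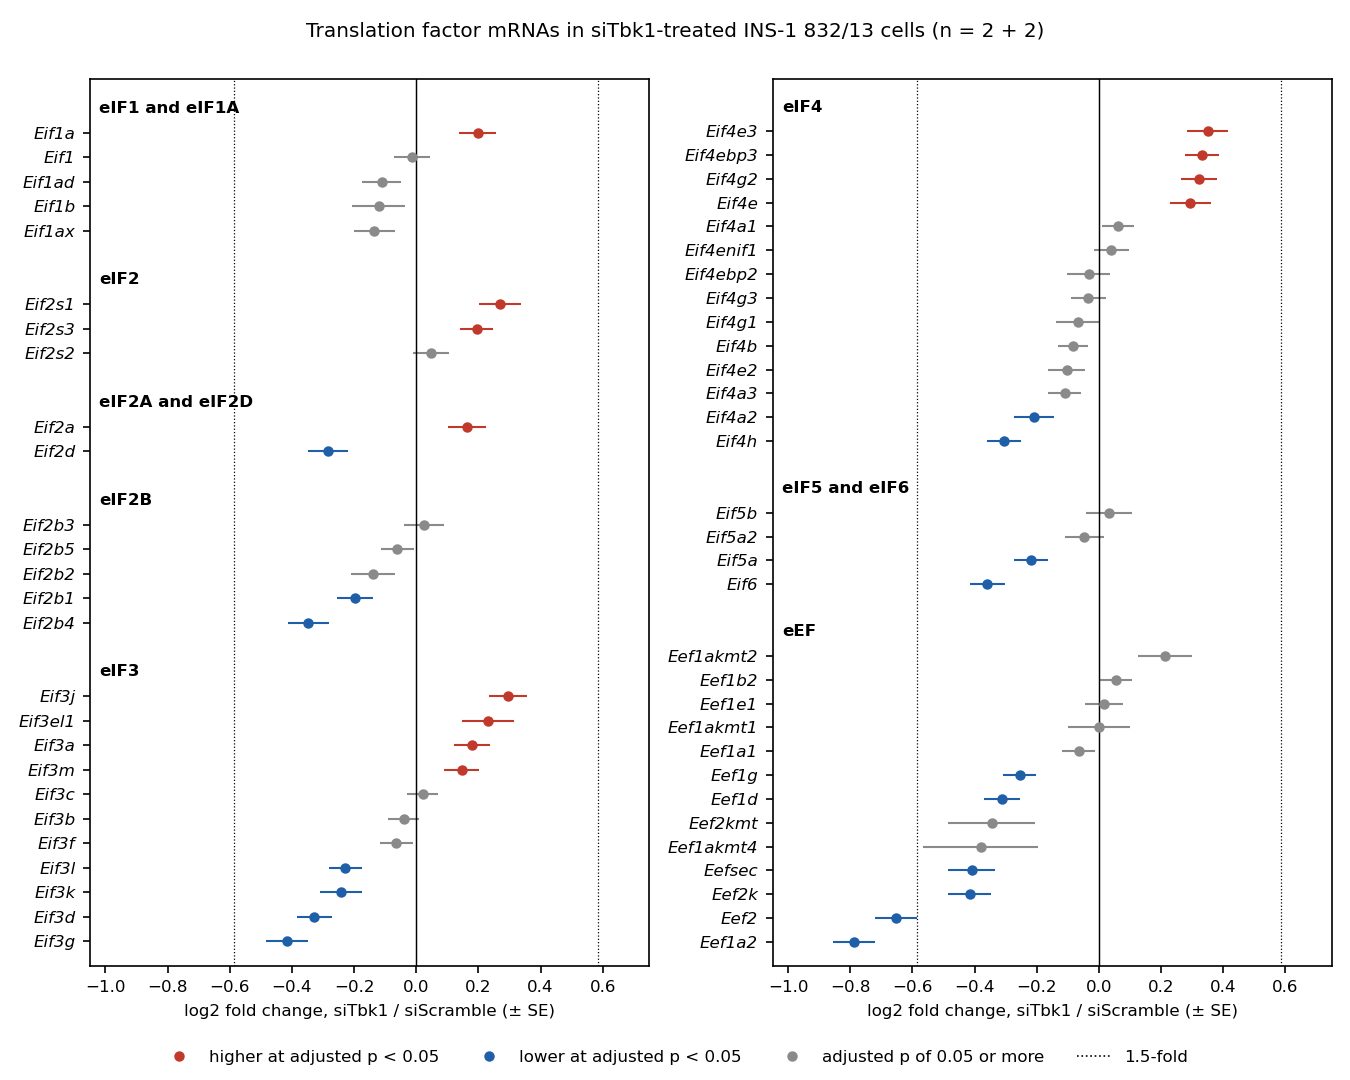
Log2 fold change (siTbk1 minus siScramble) of each of the 57 factor genes, by complex, with bars for the standard error. Dotted vertical lines mark a fold change of 1.5 in either direction. Eef1a2 (-0.79) and Eef2 (-0.65) lie farthest from 0, and the median of the eEF genes, which is not drawn, is -0.31.

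Eef1a2 and Eef2 showed the largest changes among the factor genes. Eef1a2 encodes the form of eEF1A that is used mainly in neurons, muscle and some endocrine cells, and in the table it lies on chromosome 3 from 176657107 to 176666283 (rn6). It was measured at 636 and 667 CPM in siScramble and at 405 and 349 CPM in siTbk1. The siTbk1 libraries were both lower, the mean decreased by 42.1% (651 ± 21.8 against 377 ± 39.6 CPM; SD, n = 2), and the log2 fold change was -0.79 ± 0.067 (SE; adjusted p = 5.3e-06, edgeR's quasi-likelihood test). Eef2, whose product drives translocation of the ribosome, lies on chromosome 7 from 11401501 to 11406772. Its level was 3965 and 4209 CPM in siScramble and 2771 and 2424 CPM in siTbk1, with no overlap. The mean decreased by 36.4%, for a log2 fold change of -0.65 ± 0.067 (SE; adjusted p = 1.8e-05, edgeR's quasi-likelihood test).

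The fall of Eef2 was -0.52 in the pair of libraries numbered 2 and -0.80 in the pair numbered 3. For Eef1a2 the values were -0.65 and -0.93. Here and below, such a pair is only 2 libraries with the same number. The numbers were not taken to pair the samples, and another matching would give other values. The difference was larger in size in the pair numbered 3 for 43 of the 57 members and for 9856 of the 13953 genes. Without siTbk1 replicate 3, the log2 fold change of Eef2 was -0.56, which is below the 1.5-fold limit (0.585 on the log2 scale), while Eef1a2 remained called. Neither gene passed a test against a change of 1.5-fold itself (glmTreat of edgeR).

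Eef1a1, the widely used form of eEF1A, did not pass the test. Its level was 2120 and 2070 CPM in siScramble and 1959 and 2049 CPM in siTbk1 (log2 fold change -0.06 ± 0.053, SE), so that both siTbk1 libraries were below the controls by a small margin. The log2 ratio of Eef1a2 to Eef1a1 within a library was -1.74 and -1.63 in siScramble and -2.27 and -2.55 in siTbk1. The ratio was thus lower in both siTbk1 libraries, with a shift of -0.73, and with 2 libraries in a group an exact permutation test of this ratio cannot go below p = 0.333. CPM are not divided by transcript length, so only the shift of the ratio is read here, not its level. The reads of Eef1a1 were in part split with other genes, whereas those of Eef1a2 and Eef2 were whole counts.

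**Figure D2:**
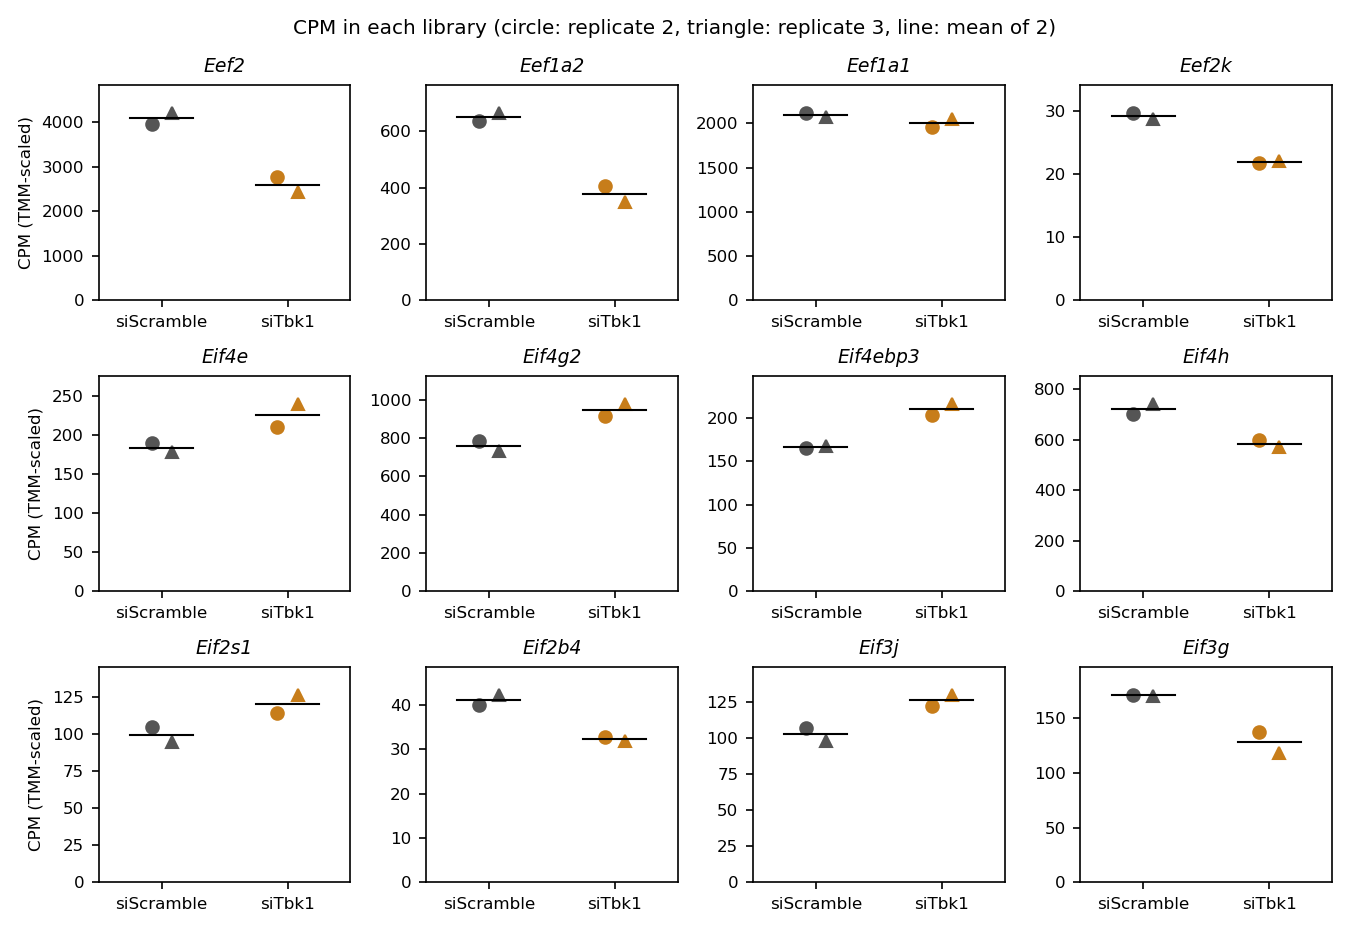
Level of 12 factor genes (CPM, axis from 0) in each of the 4 libraries, with circles for replicate 2, triangles for replicate 3 and lines for the group mean. Both siTbk1 libraries lie below both siScramble libraries for Eef2, Eef1a2, Eef2k, Eif4h, Eif2b4 and Eif3g, and above them for Eif4g2, Eif4e, Eif4ebp3, Eif2s1 and Eif3j.

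Of the 13 elongation factor genes, 6 fell (46.2%, against 24.8% of all genes), 0 rose (against 24.4%) and 7 did not pass the test, and their median log2 fold change was -0.31. Of the subunits that recharge eEF1A, Eef1d had 136 and 135 CPM in siScramble and 114 and 104 CPM in siTbk1 (log2 fold change -0.31 ± 0.058, SE). Eef1g had 1514 and 1496 CPM in siScramble and 1299 and 1225 CPM in siTbk1 (-0.25 ± 0.053), and these counts were in part split with other genes. The groups did not overlap for either gene, and the adjusted p was 0.00086 for Eef1d and 0.0018 for Eef1g (edgeR's quasi-likelihood test). The other eEF1B subunit, Eef1b2, was at a log2 fold change of 0.06 ± 0.052, and Eef1e1, a scaffold protein of the aminoacyl-tRNA synthetase complex, was at 0.02 ± 0.060.

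Eef2k, the kinase that phosphorylates eEF2 and thereby slows elongation, fell with its substrate. It was at 29.7 and 28.7 CPM in siScramble and at 21.8 and 22.0 CPM in siTbk1, and the log2 fold change was -0.41 ± 0.069 (SE; adjusted p = 0.00041, edgeR's quasi-likelihood test). The value was alike in the pairs numbered 2 (-0.45) and 3 (-0.38). Eefsec, the elongation factor that delivers selenocysteyl-tRNA, was at -0.41 ± 0.077 and fell from 31.4 and 30.4 CPM to 24.6 and 21.8 CPM. None of the 4 lysine methyltransferases of eEF1A and eEF2 passed the test. The highest of them, Eef1akmt2, was at 17.5 and 15.2 CPM in siScramble and 19.1 and 18.8 CPM in siTbk1 (0.21 ± 0.086), and the lowest, Eef1akmt4, was at 2.46 and 2.63 against 2.15 and 1.72 CPM (-0.38 ± 0.19).

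Eef2 accounted for most of the change in the summed level of the factor mRNAs. The 57 members together had 19057 and 19028 CPM in siScramble and 16914 and 16711 CPM in siTbk1, and the mean fell by 11.7%. Without Eef2 the difference was -4.95%, and without Eef2 and Eef1a2 it was -3.26%. The 44 initiation factor genes summed to 10192 and 9981 CPM in siScramble and to 9895 and 10071 CPM in siTbk1, so the groups overlapped, at -1.03%. The 11 elongation factor genes other than Eef2 and Eef1a2 summed to 4264 and 4171 CPM in siScramble and 3844 and 3866 CPM in siTbk1, a difference of -8.59%.

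**Figure D3:**
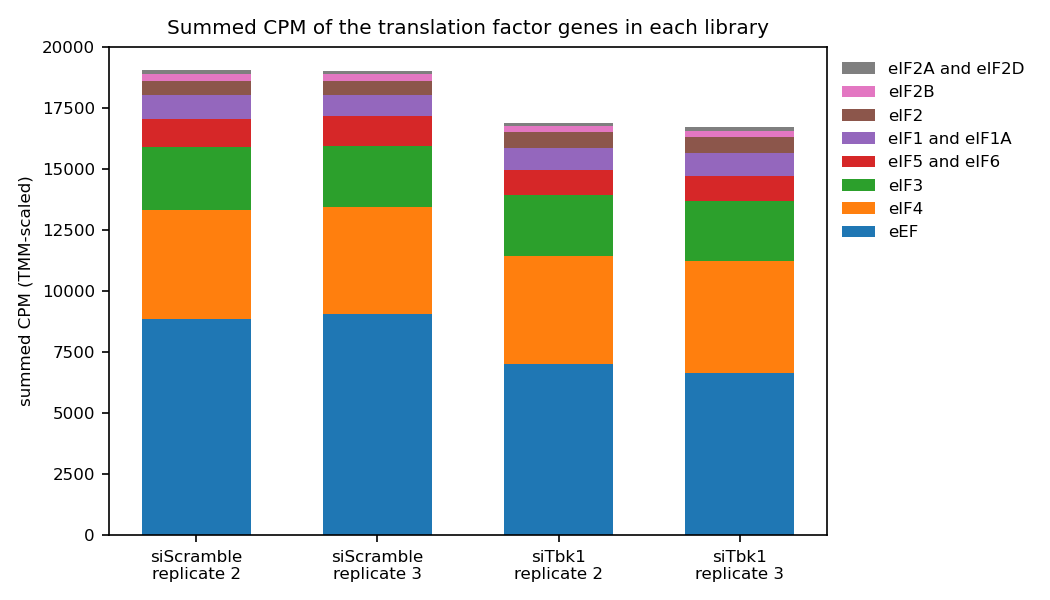
Summed level (CPM, axis from 0) of the factor genes in each of the 4 libraries, as 1 bar per library stacked by complex with the eEF genes at the bottom. The eEF part is 8865 and 9047 CPM in siScramble and 7020 and 6640 CPM in siTbk1. The initiation factors stacked above it sum to 9895 to 10192 CPM, with overlap between the groups.

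For eIF2, which carries the initiator tRNA, 2 of 3 subunit genes rose (24.4% of all genes did) and 0 fell. Eif2s1 encodes the α subunit, the target of the stress kinases, and was at 104 and 94.6 CPM in siScramble and 114 and 126 CPM in siTbk1, without overlap. The log2 fold change was 0.27 ± 0.067 (SE; adjusted p = 0.0056, edgeR's quasi-likelihood test), with 0.12 in the pair numbered 2 and 0.42 in the pair numbered 3. Without siTbk1 replicate 3 it was 0.19 and did not pass (adjusted p = 0.058, edgeR's quasi-likelihood test). Eif2s3, the γ subunit that binds GTP and tRNA, was at 311 and 294 CPM in siScramble and 344 and 349 CPM in siTbk1 (0.19 ± 0.052; split reads), and without siScramble replicate 3 it did not pass (0.15, adjusted p = 0.085, edgeR's quasi-likelihood test). Eif2s2, the β subunit, was at 175 and 158 against 171 and 172 CPM (0.05 ± 0.059), with overlap between the groups.

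For eIF2B, the exchange factor of eIF2, 2 of 5 subunit genes fell (24.8% of all genes did) and 0 rose. Eif2b4 (δ subunit) was at 40.02 and 42.3 CPM in siScramble and 32.8 and 31.8 CPM in siTbk1, a log2 fold change of -0.35 ± 0.065 (SE; adjusted p = 0.0009, edgeR's quasi-likelihood test). Eif2b1, the α subunit, fell by 0.20 on the log2 scale, from 86.5 and 87.1 CPM to 78.0 and 73.4 CPM, and did not pass without siTbk1 replicate 3 (-0.15, adjusted p = 0.13, edgeR's quasi-likelihood test). The catalytic ε subunit Eif2b5 was at 108 and 104 CPM in siScramble and 101 and 103 CPM in siTbk1 (-0.06 ± 0.054), which did not pass. Eif2b3, the γ subunit, was at 0.03 ± 0.066 and its groups overlapped. The log2 ratio of Eif2s1 to Eif2b4 within a library was 1.38 and 1.16 in siScramble and 1.79 and 1.99 in siTbk1, a shift of 0.62 (exact permutation p no lower than 0.333). Eif2s1 was the highest of the eIF2 genes and Eif2b4 the lowest of the eIF2B genes. The shift therefore joins extremes of these same data and does not describe eIF2 and eIF2B as wholes.

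Among the 6 genes that set the phosphorylation of eIF2, 1 rose, 2 fell (24.4% and 24.8% of all genes did) and 3 did not pass. Eif2ak2, the double-stranded RNA-activated kinase PKR, rose by 0.35 on the log2 scale. The regulatory subunits of the eIF2α phosphatase fell, Ppp1r15b by 0.31 and Ppp1r15a, the stress-induced one, by 0.18. Ppp1r15a did not pass when any 1 library was left out, and it was at -0.07 after a correction across all genes for genomic span, the length from start to stop in the table (the span correction). Eif2ak1, Eif2ak3 (PERK) and Eif2ak4 (GCN2) were at -0.07, -0.07 and 0.15.

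Of eIF2A and eIF2D, which can bring tRNA to the ribosome without eIF2, the gene of eIF2D fell, and the rise of the gene of eIF2A depended on the fit. Eif2a was at 93.0 and 86.4 CPM in siScramble and 97.5 and 103 CPM in siTbk1, a log2 fold change of 0.16 ± 0.060 (SE; adjusted p = 0.041, edgeR's quasi-likelihood test). Eif2a passed the adjusted p in 7 of 14 alternatives, and not with DESeq2 (adjusted p = 0.059), with library size alone (0.12), with the span correction (0.12), without siScramble replicate 3 (0.26) or without siTbk1 replicate 3 (0.24). Eif2d was at 40.8 and 43.1 against 34.4 and 34.5 CPM (-0.28 ± 0.064; adjusted p = 0.0029, edgeR's quasi-likelihood test). Eif2a encodes a single-chain protein that is distinct from the α subunit of eIF2.

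The factors eIF1 and eIF1A position the small subunit on the start codon. Of the 5 genes in this set, 1 rose (24.4% of all genes did) and 0 fell (24.8%). This was Eif1a, at 149 and 135 CPM in siScramble and 160 and 166 CPM in siTbk1 (log2 fold change 0.20 ± 0.059, SE), with reads in part split with other genes. It did not pass without siScramble replicate 3 (0.13) or without siTbk1 replicate 3 (0.17). Its X-linked counterpart Eif1ax was at 202 and 175 against 170 and 173 CPM (-0.14 ± 0.067) and did not pass the test. The log2 ratio of Eif1a to Eif1ax was -0.45 and -0.37 in siScramble and -0.09 and -0.06 in siTbk1. Eif1 (-0.01 ± 0.057) and Eif1b (-0.12 ± 0.085) did not pass, and in both genes the groups overlapped. Eif1ad, placed in the set by its symbol, was at -0.11 ± 0.063 and did not pass.

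Of the 11 eIF3 genes, 4 rose (24.4% of all genes did), 4 fell (36.4%, against 24.8%) and 3 did not pass, with a median log2 fold change of -0.04. The highest was Eif3j, a loosely bound subunit that acts at the mRNA entry channel, at 107 and 97.9 CPM in siScramble and 122 and 130 CPM in siTbk1 (0.30 ± 0.061; adjusted p = 0.0017, edgeR's quasi-likelihood test). Eif3a, the largest core subunit, rose from 347 and 312 CPM to 376 and 371 CPM (0.18 ± 0.058), and Eif3m rose by 0.15 on the log2 scale. The fourth, Eif3el1, rose by 0.23, but RefSeq uses this name both for a gene of its own and as a synonym of Eif3e, and the reads of this row were split. Of these 4, Eif3j passed the adjusted p in all 14 alternatives, and Eif3a, Eif3m and Eif3el1 in 8 each. Without siScramble replicate 3, Eif3a was at 0.10 and Eif3m at 0.10, and without siTbk1 replicate 3 Eif3el1 was at 0.11, none of which passed. With the span correction Eif3a (adjusted p = 0.065, edgeR's quasi-likelihood test) and Eif3el1 (0.078) did not pass.

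The lowest eIF3 gene was Eif3g, an RNA-binding subunit, at 172 and 171 CPM in siScramble and 138 and 119 CPM in siTbk1. Its log2 fold change was -0.42 ± 0.067 (SE; adjusted p = 0.00032, edgeR's quasi-likelihood test). Eif3d, a subunit with cap-binding activity, fell from 270 and 263 CPM to 222 and 203 CPM (-0.33 ± 0.057). Eif3k fell by 0.24 and Eif3l by 0.23 on the log2 scale, and Eif3k did not pass without siTbk1 replicate 3 (-0.17) or with the span correction (-0.17). Eif3b, Eif3c and Eif3f were between -0.06 and 0.02. Genes for further subunits of the complex were not analysed here.

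Of the 14 eIF4 genes, 4 rose (24.4% of all genes did), 2 fell (14.3%, against 24.8%) and 8 did not pass. The genes that rose were Eif4e, Eif4e3, Eif4g2 and Eif4ebp3. Eif4e, the cap-binding subunit of eIF4F, was at 189 and 178 CPM in siScramble and 210 and 240 CPM in siTbk1 (log2 fold change 0.29 ± 0.066, SE; adjusted p = 0.0029, edgeR's quasi-likelihood test). Its paralog Eif4e3 had 39.5 and 41.8 CPM in siScramble and 49.8 and 53.8 CPM in siTbk1 (0.35 ± 0.066), the highest log2 fold change of the 57 members. Eif4e2, a homolog that represses translation of bound mRNAs, was at -0.10 ± 0.060 and did not pass. The reads of Eif4e and Eif4e2 were in part split, and those of Eif4e3 were not.

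Among the scaffolds, Eif4g2 rose while Eif4g1 and Eif4g3 did not pass. Eif4g2 lacks the eIF4E-binding part and serves translation that does not use eIF4E, and it was at 782 and 729 CPM in siScramble and 912 and 979 CPM in siTbk1 (log2 fold change 0.32 ± 0.058, SE; adjusted p = 0.00065, edgeR's quasi-likelihood test). Eif4g1, the main scaffold of eIF4F, was at 61.1 and 66.6 against 64.4 and 57.2 CPM (-0.07 ± 0.071), and Eif4g3 was at -0.03 ± 0.055. The ratio of Eif4g2 to Eif4g1 was higher by 0.39 on the log2 scale in siTbk1, and all of these scaffold genes had split reads.

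Among the 5 genes for the helicases and their stimulators, Eif4a2 and Eif4h fell and none rose. Eif4a1 was at 860 and 848 CPM in siScramble and 872 and 910 CPM in siTbk1 (0.06 ± 0.051) and Eif4a3, which serves the exon junction complex, was at -0.11 ± 0.052, and neither passed the test. Eif4a2 fell from 423 and 387 CPM to 331 and 370 CPM (-0.21 ± 0.065; adjusted p = 0.018, edgeR's quasi-likelihood test). It did not pass with the span correction (-0.10, adjusted p = 0.28, edgeR's quasi-likelihood test), without siScramble replicate 2 (-0.14, 0.095) or without siTbk1 replicate 2 (-0.14, 0.12). Eif4h, which stimulates the helicase, fell from 702 and 743 CPM to 599 and 571 CPM (-0.30 ± 0.054; adjusted p = 0.00061, edgeR's quasi-likelihood test). Eif4b, the other stimulator, was at -0.08 ± 0.050.

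Of the 3 genes in the table that encode inhibitors or carriers binding eIF4E, 1 rose. The row of Eif4ebp3 was at 166 and 168 CPM in siScramble and 203 and 217 CPM in siTbk1 (log2 fold change 0.33 ± 0.054, SE; adjusted p = 0.00033, edgeR's quasi-likelihood test). That row spans 106 kb in the table, whereas RefSeq places a gene of 1.75 kb under this name, 5.37 kb behind the end of Ankhd1 (98.7 kb). Ankhd1 was not analysed here, and counts of the 2 genes cannot be told apart in this row. Eif4ebp2, the form prominent in neurons and islets, was at 118 and 136 against 128 and 120 CPM (-0.03 ± 0.069), with overlap, and Eif4enif1, which carries eIF4E into the nucleus, was at 0.04 ± 0.056.

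The promoters of Eif4e, which rose, and of Eef2, which fell, both hold the E-box letters CACGTG (palindromic, searched on both strands), the core recognised by MYC and related factors. The 250 bases before the RefSeq start on GRCr8 are given on the strand of the gene, with the matches in capitals. In all, 11 of the 53 members with a promoter held the letters in these 250 bases (20.8%, against 5.77% of all promoters), of which 1 rose, 4 fell and 6 did not pass the test.
Eif4e (chr2:229740503-229740752, plus strand): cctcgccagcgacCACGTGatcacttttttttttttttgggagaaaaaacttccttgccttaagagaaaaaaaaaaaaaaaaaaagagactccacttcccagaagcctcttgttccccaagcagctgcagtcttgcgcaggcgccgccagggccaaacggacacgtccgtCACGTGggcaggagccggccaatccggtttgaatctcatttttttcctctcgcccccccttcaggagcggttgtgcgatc
Eef2 (chr7:9189239-9189488, minus strand): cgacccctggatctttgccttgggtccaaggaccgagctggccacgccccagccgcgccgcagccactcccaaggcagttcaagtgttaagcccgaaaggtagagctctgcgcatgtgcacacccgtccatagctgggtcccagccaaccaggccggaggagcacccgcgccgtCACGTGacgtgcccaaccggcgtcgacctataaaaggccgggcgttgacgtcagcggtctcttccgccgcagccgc

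Of the 4 genes of eIF5A, eIF5B and eIF6, 2 fell (24.8% of all genes did) and 0 rose. Eif5 itself was not among the members. Eif6, which keeps the ribosomal subunits apart until the large one is mature, was at 123 and 124 CPM in siScramble and 100.2 and 92.4 CPM in siTbk1 (log2 fold change -0.36 ± 0.058, SE; adjusted p = 0.00032, edgeR's quasi-likelihood test). Eif5a, the carrier of the hypusine residue, fell from 885 and 961 CPM to 798 and 789 CPM (-0.22 ± 0.055; adjusted p = 0.0061, edgeR's quasi-likelihood test). It did not pass with the span correction (-0.0996, adjusted p = 0.18, edgeR's quasi-likelihood test) or without siScramble replicate 3 (-0.16, 0.092). Its paralog Eif5a2 was at 102 and 92.8 against 91.8 and 96.7 CPM (-0.05 ± 0.062) with overlap, and Eif5b, which joins the subunits, was at 0.03 ± 0.075.

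The enzymes that make hypusine on eIF5A, which are not members, were also measured. Dohh, the hydroxylase of the second step, was at 33.2 and 38.5 CPM in siScramble and 20.6 and 17.9 CPM in siTbk1 (log2 fold change -0.89 ± 0.090, SE; adjusted p = 1.6e-05, edgeR's quasi-likelihood test), a larger fall than that of any factor gene. Dhps, the synthase of the first step, fell by 0.25 on the log2 scale, and did not pass with the span correction (-0.13) or without siTbk1 replicate 3 (-0.21).

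Of 21 further translation genes listed for comparison, 20 were in the table, and 10 rose (24.4% of all genes did), 6 fell (30.0%, against 24.8%) and 4 did not pass the test, with a median log2 fold change of 0.09. The genes that rose included the helicase Ddx3x (0.39), the reinitiation factor Denr (0.36) and its partner Mcts1 (0.16), the termination factors Gspt1 (0.24) and Etf1 (0.22), and the eIF4A inhibitor Pdcd4 (0.21). Those that fell included Dohh and Dhps, the eIF4E kinases Mknk1 (-0.38) and Mknk2 (-0.39), and the poly(A)-binding protein Pabpc4 (-0.22). Of these, Ddx3x, Denr, Dohh and Mknk2 passed the adjusted p in all 14 alternatives, and Mcts1 in 5. The main poly(A)-binding protein Pabpc1 (0.02) and the TOP mRNA-binding protein Larp1 (0.02) did not pass.

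The TOP class held genes that fell and genes that did not pass the test. Of 10 factor genes listed as TOP mRNAs, 8 were in the table, and 4 of them fell (Eef1a2, Eef2, Eef1d and Eef1g; 24.8% of all genes fell), 0 rose (24.4% of all genes did) and 4 did not pass (Eef1a1, Eef1b2, Eif3f and Eif4b), with a median log2 fold change of -0.17. All 6 of these with a promoter in the RefSeq table held the pyrimidine run shown above. They were Eef2, Eef1a2, Eef1g, Eef1a1, Eef1b2 and Eif3f. The minimum of 7, chosen after the sequences were seen, is the run length in Eef2, Eef1a1 and Eif3f, so the 6 of 6 tests nothing. In Eef2, Eef1a2, Eef1g and Eif3f the run ended before the annotated start, and in Eef1b2 it began after it. These runs are therefore not shown to be the tract that begins a TOP mRNA. These values are mRNA levels, and the translation of TOP mRNAs was not measured.

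The factor genes that rose spanned more of the genome than those that fell. The genomic span (stop minus start in the table, introns included) had a median of 27.4 kb for the 12 that rose, 10.4 kb for the 17 that fell and 16.1 kb for the other 28. None of the 12 rows was under 11 kb, and 2 of the 17, Eef2k (62.1 kb) and Eefsec (195.9 kb), were over 25 kb. The 12 include the row of Eif4ebp3 (106 kb), although RefSeq gives that gene 1.75 kb. They also include the row of Eif3el1 (32.7 kb), whose name is ambiguous. The same order held for all genes tested, with medians of 33.9 kb for those that rose, 13.8 kb for those that fell and 18.8 kb for the rest. After a correction for span across all genes, Eef2 was at -0.54 (adjusted p = 0.0001, edgeR's quasi-likelihood test) and no longer reached the fold limit, and Eef1a2 was at -0.70 and did. By adjusted p, 9 of the 12 members that rose and 14 of the 17 that fell still passed in the same direction. Members that had not passed before also did so, giving 11 higher and 15 lower with the correction. These were Eif4a1 (0.17, adjusted p = 0.033) and Eef1b2 (0.17, 0.032), which were higher, and Eif4g3 (-0.16, 0.035), which was lower (edgeR's quasi-likelihood test). The part of span in these results was not tested beyond this correction.

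**Figure D4:**
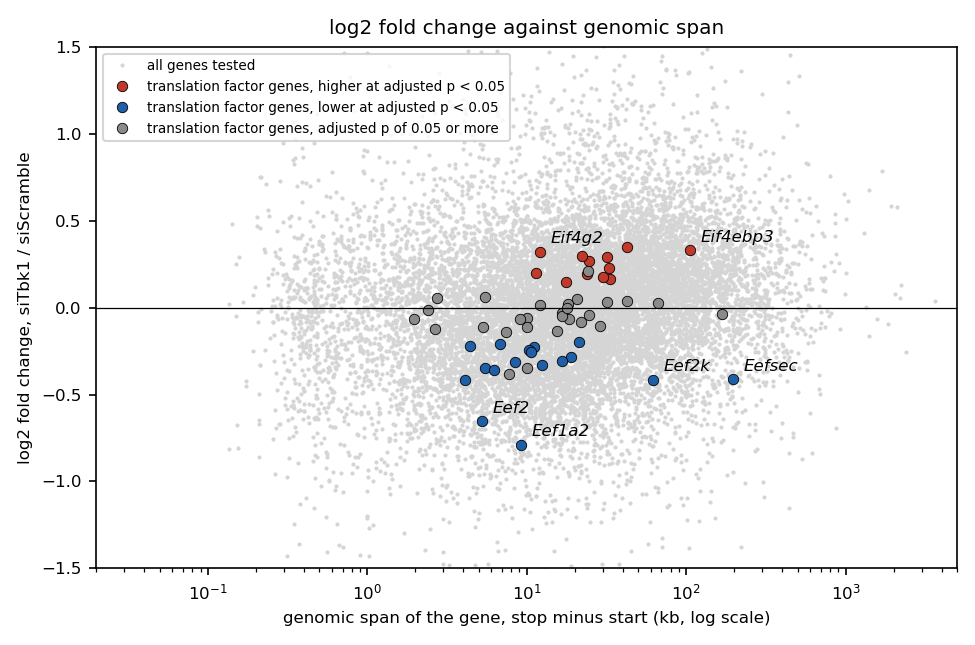
Log2 fold change (siTbk1 minus siScramble) against genomic span (kb, log axis) for all genes tested and for the 57 factor genes. The y axis ends at 1.5 in both directions and leaves out 102 genes, and the factor genes that rose (median 27.4 kb) lie to the right of most that fell (median 10.4 kb). Eif4ebp3 is drawn at the 106 kb of its row, although RefSeq gives that gene 1.75 kb.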

How the data were processed

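RNA from 4 samples of INS-1 832/13 cells (2 siScramble, 2 siTbk1, grouped by their transfection label) was sequenced after stranded, poly(A)-selected library preparation. The submitters' processing notes name STAR 2.6.1d, Partek and build rn6. The authors deposited 1 table of estimated counts per gene, not scaled between libraries, in which reads shared between genes are split. Reads were taken as split for a gene with any count more than 0.01 from a whole number. This held for 21 of 57 members and 25.8% of all genes. Beside the members marked as split above, it held for Eif1, Eif2b1, Eif3k, Eif4a1, Eif4a2, Eif4b, Eif4h, Eif4ebp3, Eif5b, Eif6 and Eef1b2.

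Counts were rounded to whole numbers. After filterByExpr (minimum count 10), 13953 genes were tested and 1219 removed. Libraries were scaled by TMM (factors 0.982 to 1.02), and siTbk1 was compared with siScramble by the quasi-likelihood test of edgeR, with p-values adjusted over all genes (Benjamini-Hochberg). A gene was called at adjusted p below 0.05 and a fold change of at least 1.5, and "rose" and "fell" mean adjusted p below 0.05 alone. A level of 3 counts corresponds to 0.0625 to 0.0795 CPM. Intervals of depth cover counting error only.

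Genes were named if called, if highest or lowest of their complex, or if in a set of paralogs or antagonists, and other members that passed were named after their values were seen. Members and lists were chosen with earlier results of these data known. Promoters came from RefSeq (GRCr8, 300 bases each, 53 of 57 matched by symbol; for 4 with several starts the first by position was used). No coordinates were converted between rn6 and GRCr8. The code was tested on simulated counts. Alternatives were other scalings, filters, tests, a replicate block, a span correction and leaving out each library. R 4.3.3, edgeR 4.0.16, limma 3.58.1, DESeq2 1.42.0, Python 3.11.15 and matplotlib 3.10.9 were used.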

Additional observations from a re-analysis of the deposited data

How the results depend on the processing

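Of the 29 factor genes past the adjusted p, all 29 kept their direction under the 14 alternatives fitted to single genes, and 16 passed the adjusted p in every one (5 higher, 11 lower). The number called lower was 2 (862 of all genes). It became 0 with glmTreat (101 of all genes), 1 with the span correction (752), and 1 with the replicate block and span correction together (776). Without siTbk1 replicate 3, Eef2 was at -0.56 and did not reach the fold limit. The number higher at adjusted p (12) ranged from 6 to 13 when each library was left out, with 6 both without siScramble replicate 3 and without siTbk1 replicate 3. The number lower at adjusted p (17) ranged from 15 to 19 in the same way and was 11 with the block and span correction. By construction, leaving out a library leaves 1 sample in a group, which is assumed to vary like the others.

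Replicate numbers 2 and 3 are shared by the groups in the labels, and the total counts also went by number. They were 47443061 (siScramble) and 47759013 (siTbk1) for number 2, and 38811919 and 38428926 for number 3. The origin of this difference in depth was not tested. Deviations of same-numbered libraries from their group means had Pearson's r = -0.08 and Spearman's rho = -0.22 across all genes tested, which are not independent. Across the members Pearson's r was -0.38. The numbers were therefore not taken to pair the samples. With the replicate block, 0 members were called higher and 2 lower (699 and 898 of all genes were), and 10 and 17 were higher and lower at adjusted p. Of the members named, Eif2a (adjusted p = 0.088) and Eif3m (0.10) no longer passed. With the crossed pairing, chosen after seeing the data, the counts were 0, 2, 13 and 18. In that fit 648 of all genes were called higher and 872 lower.

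Library size alone as the scaling shifted the median of all genes from 0.01 to -0.04. At adjusted p, 8 members were then higher and 22 lower, against 12 and 17 in the main fit. The median log2 fold changes were then -0.11 over all members, 0.15 for eIF2, -0.11 for eIF2A and eIF2D, -0.19 for eIF2B, -0.087 for eIF3, -0.081 for eIF4 and -0.18 for eIF5 and eIF6. With the span correction they were -0.026 over all members, 0.0038 for eIF1 and eIF1A, -0.076 for eIF2B, 0.021 for eIF3, -0.051 for eIF5 and eIF6 and -0.22 for eEF, and with the replicate block added they were -0.026, 0.0024, -0.076, 0.022, -0.052 and -0.22 in the same order. Leaving out each library gave -0.085 to -0.032 over all members, -0.13 to 0.016 for eIF1 and eIF1A, -0.18 to -0.10 for eIF2B, -0.075 to 0.013 for eIF4 and -0.39 to -0.24 for eEF. The cause of these shifts was not tested. No value that was called changed sign. With 2 samples a group and a biological coefficient of variation of 0.048, small differences among members that did not pass were not detectable.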
